A study of Mus musculus with 12 samples.

Results

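The caspases Casp1, Casp4, Casp8 and Casp12, the pore-forming protein gene Gsdmd and the necroptosis genes Mlkl, Ripk1 and Ripk3 were followed in 2 mouse melanoma lines. They are 8 of the 55416 genes in the deposited count tables, taken by name, but with earlier results of these data known. Each gene symbol matched 1 gene ID in the deposited tables. The lines were B16, which is pigmented, and YUMM1.1, derived from a genetically engineered mouse melanoma with mutant Braf. Each was either left untreated or exposed to recombinant mouse interferon-gamma (IFNG) at 10 ng/ml, and bulk RNA was sequenced after 48 h, with 3 libraries in each of the 4 groups and 12 in all. Whether replicate libraries stem from separate cultures is not stated in the labels, and p-values therefore reflect the spread between these libraries alone, which may be technical. Each line stands for 1 tumour lineage grown in culture, with no immune cells or host tissue.

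Cells can die by several routes that these genes serve. Inflammatory caspases (Casp1, the mouse Casp4 gene product known as caspase-11, and the related Casp12) belong to the pyroptosis branch, in which caspase-1 or caspase-11 cuts gasdermin D and its freed end forms pores in the plasma membrane. Caspase-8 starts apoptosis below death receptors and holds necroptosis in check, while necroptosis passes from RIPK1 to RIPK3, which phosphorylates MLKL so that it permeabilizes the membrane. Transcription after IFNG uses the GAS element of promoters and interferon regulatory factors (IRFs), and many genes of these routes are known targets of interferons.

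The total counts were 2573805 to 7888257 in the B16 libraries and 19145253 to 24747859 in the YUMM1.1 libraries, so line and depth cannot be told apart. Levels are in CPM, that is, a gene's counts as a share of its library's total, and changes are log2 fold changes from edgeR quasi-likelihood tests with a Benjamini-Hochberg adjusted p over all tested genes. Called means that this p was below 0.05. Changes are relative to TMM scaling, since library totals alone shift the median gene by -0.19 (log2) in B16 and by -0.08 in YUMM1.1. Among the B16 libraries IFNG 3 stood apart, since its counts differed from those of IFNG 1 and IFNG 2 with a chi-square per degree of freedom at 17.2 and 16.9, against 1.27 between those 2. Its mitochondrial share was 1.95%, against 1.07% and 1.04% in those. The same 5 members were called in B16 with and without that library. In YUMM1.1, Control 1 differed from Control 2 and 3 at 41.5 and 32.3 on that measure, against 13.99 between those 2, and IFNG 3 differed from IFNG 1 and 2 at 30.7 and 30.4, against 13.5. Control 1 also had a mitochondrial share of 1.104%, against 0.560% and 0.622% in the other controls. The same 5 members were called in YUMM1.1 without either library, and the Gsdmd change was 3.66 without Control 1 and 4.01 without IFNG 3 (log2). In bulk RNA, fewer cells with a transcript and less transcript per cell cannot be told apart.

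Mlkl, Gsdmd and Casp12 rose with IFNG in both lines. Casp8 and Ripk1 rose in B16 and were not called in YUMM1.1. Casp1 and Casp4 rose in YUMM1.1, while in B16 Casp4 was not called and Casp1 was too low to test. Of the 8 members, 6 passed the filter on low counts in B16 and 5 of these were called higher and 0 lower, where 22.1% of 11240 tested genes were called higher and 22.0% lower. In YUMM1.1 7 passed, 5 were called higher and 0 lower, where 3.73% of 12970 tested genes were called higher and 0.825% lower. Casp12 in B16 and Gsdmd in YUMM1.1 passed the filter only through the treated libraries, so they could only come out higher. The untested members were Casp1 and Ripk3 in B16 and Ripk3 in YUMM1.1.

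**Figure D1:**
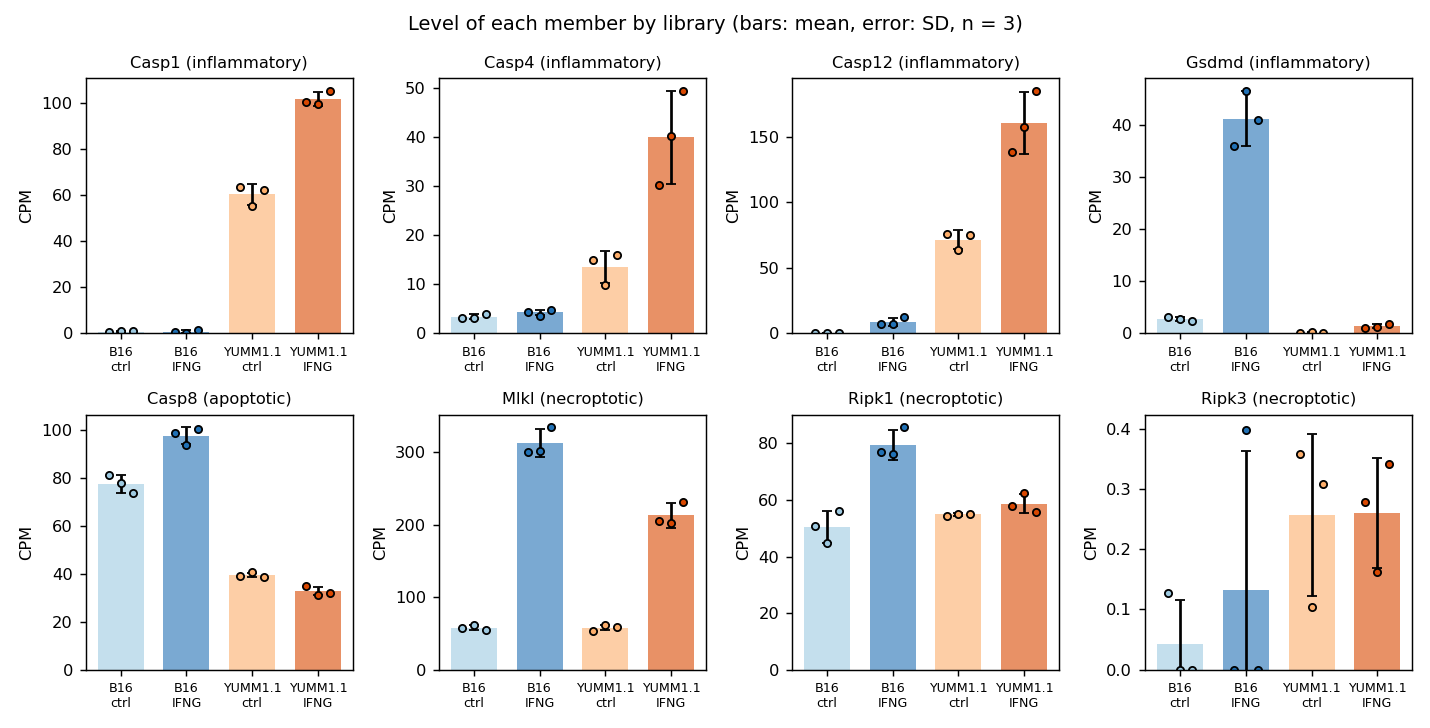
Level of each of the 8 genes in CPM (vertical axes, each with its own scale) in untreated (ctrl) and IFNG-treated libraries of B16 and YUMM1.1. Bars are means of 3 libraries, error bars SD and points single libraries. Mlkl rose from 58.2 CPM in either line to 312.2 in B16 and 212.8 in YUMM1.1, while Casp1, Casp4 and Casp12 were high in YUMM1.1 and Gsdmd was high in treated B16.

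The 3 inflammatory caspase genes lie next to each other on the plus strand of chromosome 9 (GRCm38, GENCODE M21), with Casp1 (ENSMUSG00000025888) at chr9:5298517-5307265, Casp4 (ENSMUSG00000033538) at chr9:5308828-5336783 and Casp12 (ENSMUSG00000025887) at chr9:5345430-5373032. The gaps are 1562 bp and 8646 bp, with no annotated gene in either, and the whole run spans 74516 bp. Because these neighbours rose together in YUMM1.1, the stretches before their start sites are shown, cut where an annotated exon begins. All are plus-strand sequence from RefSeq on GRCm38.p6, read 5′ to 3′, and capitals mark matches to the GAS letters TTCNNNGAA.
Casp1, chr9:5298267-5298516: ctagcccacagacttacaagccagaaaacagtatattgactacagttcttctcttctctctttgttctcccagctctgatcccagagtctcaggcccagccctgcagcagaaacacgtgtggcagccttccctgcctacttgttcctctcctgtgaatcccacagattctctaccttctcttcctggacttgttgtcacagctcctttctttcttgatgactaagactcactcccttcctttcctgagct
Casp4, chr9:5308599-5308827: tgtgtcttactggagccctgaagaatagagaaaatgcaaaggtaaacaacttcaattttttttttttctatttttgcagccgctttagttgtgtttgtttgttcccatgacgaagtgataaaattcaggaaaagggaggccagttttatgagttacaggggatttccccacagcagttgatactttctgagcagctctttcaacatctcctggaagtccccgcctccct
Casp12, chr9:5345226-5345429: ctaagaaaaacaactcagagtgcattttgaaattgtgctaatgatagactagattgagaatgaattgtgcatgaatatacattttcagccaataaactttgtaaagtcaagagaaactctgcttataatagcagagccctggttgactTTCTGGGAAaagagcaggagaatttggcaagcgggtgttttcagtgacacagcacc
Casp12 had a match at chr9:5345374-5345382, 102 to 94 bases before the RefSeq start site, and a second with the same letters 36 to 28 bases before it, inside an annotated exon and so not shown. GAS reads the same on both strands. It occurred in 7.02% of 32851 promoter windows of 250 bp, at least 2 times in 0.317%. Neither Casp1 nor Casp4 had a match, and none of the 3 had an IRF element, searched as GAAA repeated after a gap of 2 bases, on either strand. Such an element was in 2.98% of the windows. Outside this run, Ripk1 had 2 GAS matches before the second of its 2 RefSeq start sites and 0 before the first. They lay 108 to 100 and 11 to 3 bases before that site, inside an annotated exon and so not shown. Gsdmd had no window among these promoters and was not searched. A match or its absence describes letters in these windows, not binding.

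Casp1, the protease that matures interleukin-1 beta and interleukin-18, was close to silent in B16 and abundant in YUMM1.1. Untreated YUMM1.1 libraries had 63.5, 55.1 and 62.0 CPM (1421, 1054 and 1205 counts), and treated ones 100.2, 99.4 and 105.3 CPM. Every treated library was above every untreated one. The log2 change was 0.83 (SE 0.10, edgeR adjusted p = 6.51e-04). In B16 there were 2, 4 and 2 counts in the untreated and 2, 1 and 9 in the treated libraries, in overlapping ranges. These 12 treated against 8 untreated counts give a ratio of CPM of 1.32 with a 95% counting interval of 0.494 to 3.71, so a change was not detectable at this depth.

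Casp4, whose product senses cytosolic lipopolysaccharide in mice, was at 14.98, 9.82 and 15.9 CPM in untreated and 30.3, 40.3 and 49.4 CPM in treated YUMM1.1. The groups did not overlap, although each spread widely. The log2 change was 1.64 (SE 0.22, edgeR adjusted p = 0.00136). B16 libraries had 3.04, 2.99 and 3.88 CPM untreated and 4.34, 3.58 and 4.67 CPM treated, with overlapping ranges. The B16 value of 0.59 (SE 0.24) did not pass, at an edgeR adjusted p of 0.0739 on 49 untreated and 75 treated counts.

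Casp12, an inflammatory-group caspase of the endoplasmic reticulum in mice, went from near 0 to a low level in B16. The untreated B16 libraries held 0, 0 and 1 count, and the treated ones 41, 35 and 80 counts, or 6.85, 6.96 and 12.05 CPM. No treated library came near an untreated one, and IFNG 3 was the highest. The ratio of pooled CPM was 136.8, with a 95% counting interval of 24.2 to 5437 that covers counting error only. In edgeR its adjusted p was 4.06e-05, and the fitted log2 value of 6.80 rests on that 1 count: it was 5.96 without Control 1 and 8.81 without Control 3, after which every remaining control was at 0. YUMM1.1 already had 76.0, 63.1 and 75.1 CPM untreated and had 138.6, 157.7 and 185.3 CPM treated. These groups were separate, with a log2 change of 1.25 (SE 0.14, edgeR adjusted p = 2.43e-04).

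Gsdmd (ENSMUSG00000022575, chr15:75862327-75867408, plus strand) encodes the pore protein gasdermin D that the inflammatory caspases cut. In B16 it stood at 3.04, 2.79 and 2.33 CPM untreated and at 36.1, 46.7 and 41.1 CPM treated. The treated libraries were far above the untreated ones, with a log2 change of 4.05 (SE 0.19, edgeR adjusted p = 1.96e-07). In YUMM1.1 the untreated libraries held 0, 3 and 1 counts and the treated ones 22, 29 and 41. All treated libraries exceeded all untreated ones, but at 1.02, 1.17 and 1.75 CPM they stayed below every untreated B16 library. The log2 change was 4.28 (SE 0.65, edgeR adjusted p = 0.00276), and the ratio of pooled CPM was 20.1 with a counting interval of 7.58 to 75.3. Leaving out Control 1 gave a fitted value of 3.66 and leaving out Control 2 gave 5.55.

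The lines differed in which inflammatory members were abundant. YUMM1.1 had the caspases with little Gsdmd. B16 had little Casp1, and its Gsdmd averaged 2.72 CPM untreated and 41.3 CPM treated. Leukocytes express Casp1 and Gsdmd strongly. Of 13 leukocyte markers, 5, 5, 5 and 6 had any count in untreated B16, treated B16, untreated YUMM1.1 and treated YUMM1.1. Their summed levels were 2.28 to 6.99, 4.67 to 7.18, 3.71 to 6.79 and 4.12 to 5.45 CPM, mostly Cd68 and Lyz2. Ptprc, the pan-leukocyte marker CD45, had 1, 1, 0 and 0 counts. Cd68, a macrophage marker, was called higher in B16 (log2 1.44, SE 0.44, edgeR adjusted p = 0.0257) and not in YUMM1.1 (log2 -0.07, edgeR adjusted p = 0.942). Lyz2 went the other way in B16, from 1.28 to 0.689 CPM on 15 and 12 counts. In untreated and treated B16, Csf1r had 2 and 1 counts, Cd4 3 and 0 and Adgre1 0 and 2. The part of such cells in the values of Gsdmd and Casp12 was not tested.

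Casp8 (ENSMUSG00000026029, chr1:58795374-58847503, plus strand), the apoptotic initiator, moved little. B16 libraries had 81.4, 77.7 and 73.8 CPM untreated and 98.7, 93.8 and 100.5 CPM treated. These ranges were apart, and the log2 change was 0.52 (SE 0.10, edgeR adjusted p = 0.00182). In YUMM1.1 the level was 39.2, 40.6 and 38.8 CPM untreated and 34.8, 31.4 and 32.2 CPM treated. The treated CPM values were all lower, but the log2 value of -0.19 did not pass (edgeR adjusted p = 0.431), with a 95% interval of -0.42 to 0.03. Casp8 overlaps the gene model Gm37760 on the same strand and shares 4.37% of its 50-base words with Gm20257.

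Ripk1 (ENSMUSG00000021408, chr13:34002363-34037147, plus strand) encodes the kinase at the fork between survival, apoptosis and necroptosis. In B16 it was at 50.7, 44.8 and 56.0 CPM untreated and at 76.8, 76.1 and 85.7 CPM treated. The groups did not overlap, with a log2 change of 0.86 (SE 0.12, edgeR adjusted p = 2.81e-04). YUMM1.1 had 54.2, 55.2 and 55.2 CPM untreated and 57.9, 62.5 and 55.8 CPM treated. The lowest treated library was only just above the highest untreated one, and the log2 value of 0.17 did not pass (edgeR adjusted p = 0.474, 95% interval -0.05 to 0.40). Ripk1 shares 7.87% of its 50-base words with Gm17084 and Serpinb6a, which overlap it, and reads in the shared sequence cannot be assigned to 1 gene.

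Ripk3 (ENSMUSG00000022221, chr14:55784995-55788865, minus strand), the kinase that activates MLKL, was hardly detected in any group. B16 had 1, 0 and 0 counts untreated and 0, 2 and 0 treated, while YUMM1.1 had 8, 2 and 6 untreated and 6, 4 and 8 treated. The groups overlapped in both lines. In YUMM1.1, 18 treated against 16 untreated counts give a ratio of pooled CPM of 0.982, with a 95% counting interval of 0.473 to 2.06.

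Mlkl (ENSMUSG00000012519, chr8:111311797-111338177, minus strand), the executioner of necroptosis, showed the change with the smallest adjusted p among the members in both lines. B16 libraries went from 57.8, 61.5 and 55.2 CPM to 300.0, 302.1 and 334.4 CPM, and YUMM1.1 libraries from 53.9, 61.1 and 59.6 CPM to 204.5, 201.8 and 232.0 CPM. The lines overlapped before treatment and were apart after it, with B16 higher. The log2 change was 2.61 in B16 (SE 0.10, edgeR adjusted p = 4.41e-08) and 1.95 in YUMM1.1 (SE 0.11, edgeR adjusted p = 1.34e-06). Mlkl overlaps a processed pseudogene, Gm45712, on the other strand. The 250 bases before its RefSeq start site, shown because it rose in both lines, hold neither the GAS nor the IRF letters on either strand (GRCm38.p6, minus strand, 5′ to 3′).
Mlkl, chr8:111338206-111338455: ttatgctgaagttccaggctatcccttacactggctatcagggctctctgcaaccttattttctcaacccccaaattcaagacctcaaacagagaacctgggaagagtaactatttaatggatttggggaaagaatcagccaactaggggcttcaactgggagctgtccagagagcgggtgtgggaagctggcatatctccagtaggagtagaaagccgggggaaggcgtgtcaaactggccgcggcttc

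**Figure D2:**
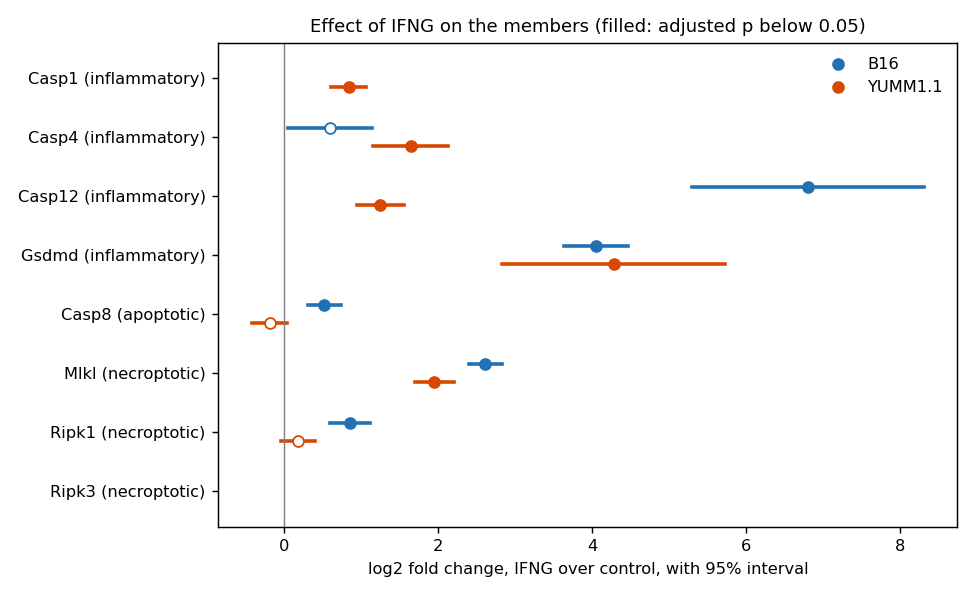
Log2 fold change of IFNG-treated over untreated libraries (horizontal axis) for each gene with a fit, with 95% intervals, in B16 (blue) and YUMM1.1 (orange). Filled points have an edgeR adjusted p below 0.05. Casp12 in B16 rests on 1 control count, Gsdmd was near 4 in both lines, and Casp8 and Ripk1 were called in B16 alone.

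By role, 2 of 3 tested inflammatory members were called higher in B16, where 22.1% of all tested genes were, and 4 of 4 in YUMM1.1, where 3.73% were. Those counts include Casp12 in B16 and Gsdmd in YUMM1.1, which passed the filter on low counts through the treated libraries alone and could only come out higher, so nothing is read from the counts. The apoptotic member was called in B16 and not in YUMM1.1. Of the 2 tested necroptotic members, both were called in B16 and 1 in YUMM1.1.

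The members' levels were also compared per kilobase of annotated exon, which allows different genes to be set side by side. In untreated B16 Casp8 led at 26.8 ± 1.31 CPM per kb, with Mlkl at 25.3 ± 1.39 and overlapping it, then Ripk1 at 6.05 ± 0.667. Gsdmd and Casp4 followed at 1.15 ± 0.152 and 0.891 ± 0.136, with overlapping ranges, and Casp1, Casp12 and Ripk3 were below 0.5. After IFNG Mlkl led at 135.5 ± 8.36, ahead of Casp8 at 33.8 ± 1.19, Gsdmd at 17.4 ± 2.24 and Ripk1 at 9.53 ± 0.639.

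In untreated YUMM1.1 the order began with Casp1 at 40.2 ± 3.02 CPM per kb, Mlkl at 25.3 ± 1.66, Casp12 at 18.6 ± 1.88 and Casp8 at 13.7 ± 0.319. After IFNG it was Mlkl at 92.4 ± 7.26, Casp1 at 67.9 ± 2.12 and Casp12 at 41.8 ± 6.11, with Casp8 at 11.3 ± 0.613 and Casp4 at 10.8 ± 2.57 overlapping. Gsdmd and Ripk3 were the lowest pair in both YUMM1.1 groups. Mlkl led in both lines after treatment. The place of Casp4 depends on which exons are counted: it moved up 1 rank in 3 of the 4 groups with the longest coding transcript as the length, 1435 bp in place of 3710 bp.

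Summed per kilobase, the 8 genes reached 60.6 ± 1.57 in untreated and 200.1 ± 11.2 in treated B16, and 108.1 ± 4.36 and 231.9 ± 17.0 in YUMM1.1. Mlkl made up 41.6% of that sum in untreated and 67.7% in treated B16, and 23.4% and 39.8% in YUMM1.1. The share of Casp8 was 44.2% and 16.9% in B16 and 12.7% and 4.91% in YUMM1.1. The 4 inflammatory members held 4.09% and 10.6% in B16, with Gsdmd alone at 1.88% and 8.70%, and 57.7% and 52.2% in YUMM1.1. The 3 libraries of each group gave similar make-ups. The level of Mlkl relative to that of Casp8 went from 0.942 ± 0.0516 (SD, n = 3) to 4.02 ± 0.184 in B16 and from 1.85 ± 0.108 to 8.17 ± 0.832 in YUMM1.1.

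**Figure D3:**
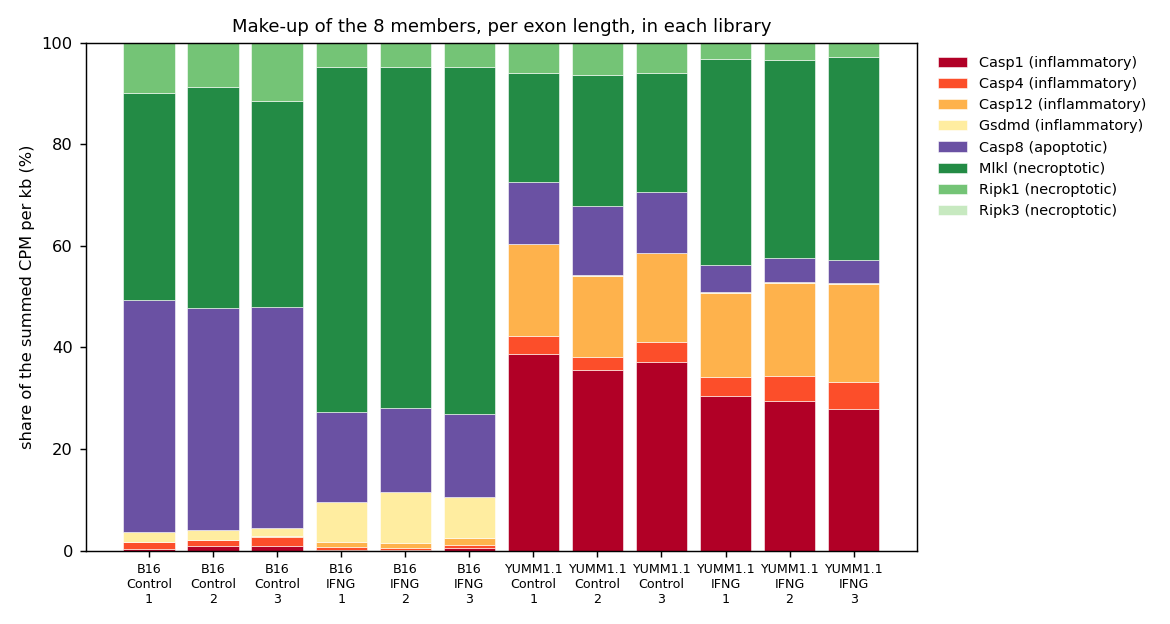
Share of each gene in the summed level of the 8 genes (vertical axis, percent of CPM per kb of exon) in each of the 12 libraries. Mlkl grew to 67.7% on average in treated B16, and the inflammatory caspases filled more than 50% of the bar in every YUMM1.1 library.

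Whether the lines responded differently was tested as the interaction of line and treatment on all 12 libraries, where 18.5% of 13603 tested genes were called and 8.51% were called with a lower value in YUMM1.1. Of 7 tested members, 4 were called, all lower in YUMM1.1. The Mlkl response differed by -0.64 (SE 0.15, edgeR adjusted p = 0.00704), that of Ripk1 by -0.66 (SE 0.15, edgeR adjusted p = 0.00638) and that of Casp8 by -0.69 (SE 0.14, edgeR adjusted p = 0.00305). Casp12 differed by a fitted -5.77 (SE 0.76, edgeR adjusted p = 5.71e-05), which rests on the 1 untreated B16 count and was -8.68 without Control 3 and -4.88 without Control 1 of B16.

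For Gsdmd the difference was 0.19 (edgeR adjusted p = 0.815) and rests on 4 untreated YUMM1.1 counts. Its fitted 95% interval of -0.67 to 1.04 is too narrow, since the YUMM1.1 change alone had an SE of 0.65. With a library left out the value ran from -0.41 to 1.35, so a difference in either direction remains possible. For Casp1 the difference was 0.30 with an interval of -1.19 to 1.79, set by the few B16 counts. For Casp4 it was 1.07 (SE 0.39), with an edgeR adjusted p of 0.0685 that passed with library totals, with no filter and without YUMM1.1 IFNG 1 (range over all alternatives 0.0165 to 0.172). Casp4 was called in YUMM1.1 alone, but the difference between the lines did not pass in the main fit.

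Before treatment the lines differed most in the inflammatory members. In this comparison 34.7% of tested genes were called higher in YUMM1.1 and 33.4% lower, so a call by itself is common. Casp1 was higher in untreated YUMM1.1 by 7.03 (log2, SE 0.30, edgeR adjusted p = 2.54e-12) and Casp4 by 2.30 (SE 0.27, edgeR adjusted p = 1.16e-06). With 8 B16 counts of Casp1, the ratio of pooled CPM was 116.8. Its counting interval of 59.2 to 270.8 is wider than that SE implies. Casp12 was higher by a ratio of pooled CPM of 1110, with a counting interval of 199 to 43840 that reflects the single B16 count. Gsdmd was lower by a log2 value of -5.03 (SE 0.53, edgeR adjusted p = 2.89e-07). That value was -4.43 without YUMM1.1 Control 1 and -6.19 without YUMM1.1 Control 2. On 4 YUMM1.1 counts the ratio of pooled CPM was 0.0231, with a counting interval of 0.00603 to 0.0634, also wider than the SE implies.

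The apoptotic and necroptotic members started closer together. Casp8 was lower in YUMM1.1 by a log2 value of -0.76 (SE 0.10, edgeR adjusted p = 5.70e-06). Ripk1 was higher by 0.35 (SE 0.11, edgeR adjusted p = 0.0111), a call that was lost with library totals (0.13) and without B16 Control 2 (0.28), with adjusted p from 0.00228 to 0.316 over the alternatives. Mlkl did not pass, at 0.21 (95% interval -0.02 to 0.45, edgeR adjusted p = 0.0986).

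After treatment 36.6% of genes were called higher in YUMM1.1 and 33.2% lower, and all 7 tested members were called. This comparison and the preceding ones share libraries. Casp1 was higher in YUMM1.1 by 7.33, Casp4 by 3.36 and Casp12 by 4.32 on the log2 scale, and Gsdmd was lower by -4.84 and Casp8 by -1.45. The value for Casp1 was 8.62 without B16 IFNG 3, the library with 9 of its 12 counts. Mlkl was lower in YUMM1.1 by -0.43 (SE 0.10, edgeR adjusted p = 0.00149) and Ripk1 by -0.32 (SE 0.11, edgeR adjusted p = 0.0144), the last not called when no filter was used.

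Other genes of the same routes were read from 3 lists, beside backgrounds of 22.1% of tested genes called higher and 22.0% lower in B16, and of 3.73% and 0.825% in YUMM1.1. Of 17 inflammasome and pyroptosis partners 7 were tested in B16, where 3 were called higher and 1 lower, with a median log2 value of 0.21. Il18, a cytokine that caspase-1 matures, went from 3.83 ± 1.07 to 11.9 ± 2.56 CPM (log2 1.94, edgeR adjusted p = 2.34e-04). Naip2, a sensor of bacterial proteins that passed the filter through the treated libraries alone, rose by 2.69 and Pycard, the inflammasome adaptor ASC, by 1.12 on the log2 scale. Gsdmc, another gasdermin, fell from 223.1 ± 3.70 to 25.0 ± 3.15 CPM (log2 -2.96, edgeR adjusted p = 5.55e-08).

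In YUMM1.1 0 of 7 tested genes of that list were called by edgeR, with a median of 0.33. At an unadjusted p below 0.05 there were 2, Il18 and Naip2, and DESeq2 called 1, Naip2. In YUMM1.1 too Naip2 passed the filter on low counts through the treated libraries alone and could only come out higher. It had 23 untreated and 91 treated counts. Pycard had 2 counts in untreated and 4 in treated YUMM1.1, so the line with most Casp1 had almost none of the adaptor. Il1b and Aim2 had 0 counts in every library, and Nlrp3 had 0, 1, 2 and 2 counts in the 4 groups.

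Among 9 other caspases and apoptosome genes, 8 were tested in each line. In B16 2 were called higher and 1 lower (median 0.31), and in YUMM1.1 1 was called higher and 0 lower (median -0.03). Counts this small lie near those backgrounds, and nothing is read from them for the list. Bid, which links caspase-8 to mitochondria, went from 42.3 ± 2.95 to 61.4 ± 6.43 CPM in B16 (log2 0.74, edgeR adjusted p = 9.77e-04) and from 29.4 ± 4.08 to 63.1 ± 3.31 CPM in YUMM1.1 (log2 1.18, edgeR adjusted p = 2.14e-04). In B16 Cycs, cytochrome c, rose by 0.56 and Apaf1, the apoptosome scaffold, fell by 0.39, a call that was lost without any 1 of 5 of the 6 libraries, those other than IFNG 3. None of the 8 was called in the interaction test by edgeR or by DESeq2, and 1 had an unadjusted p below 0.05 in edgeR.

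Of 19 death receptor and necrosome partners 15 were tested in B16, with 7 called higher and 1 lower (median 0.36), and 17 in YUMM1.1, with 4 called higher and 0 lower (median 0.23). In both lines 2 of those called higher, Zbp1 and Tnfsf10, passed the filter on low counts through the treated libraries alone and could only come out higher. Zbp1, the nucleic acid sensor that engages RIPK3, went from 0.326 ± 0.303 to 749.8 ± 25.2 CPM in B16 and from 0.116 ± 0.0356 to 223.6 ± 42.6 CPM in YUMM1.1. Its log2 change was 11.02 in B16 (edgeR adjusted p = 9.90e-10) and 10.93 in YUMM1.1 (edgeR adjusted p = 3.26e-09). These rest on 6 untreated counts in B16 and 7 in YUMM1.1. The difference between the lines, -0.15 with an SE of 1.47, is too uncertain to show whether they responded alike. Tlr3, the receptor for double-stranded RNA that can reach RIPK3, rose by 2.93 and 2.11 on the log2 scale.

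Tnfsf10, the death ligand TRAIL, had 0 counts in untreated and 252 in treated B16, so with the untreated group set to a floor of 3 counts in all it was at least 73.7-fold higher. With it at that bound the median of the B16 list was also 0.36. In YUMM1.1 it rose from 11 to 932 counts (log2 6.23, edgeR adjusted p = 2.04e-05). Birc2, the ubiquitin ligase cIAP1, rose in B16 by 0.98 on the log2 scale (edgeR adjusted p = 6.85e-04, at most 0.00981 over the alternatives). In YUMM1.1 it rose by 0.64 (edgeR adjusted p = 0.0273, range over the alternatives 0.00108 to 0.103). The YUMM1.1 call was lost without any 1 of 5 of the 6 libraries, those other than Control 1, and with library totals in place of TMM. The difference between the lines was not called (edgeR adjusted p = 0.346). Traf2, its adaptor, was the 1 lower call in B16, at -0.55, and lost that call without Control 1 or Control 2.

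Cflar, the caspase-8 inhibitor c-FLIP, went from 104.5 ± 10.4 to 286.3 ± 33.3 CPM in B16 (log2 1.65, edgeR adjusted p = 4.08e-06), and was at 102.5 ± 18.4 and 111.3 ± 5.66 CPM in YUMM1.1 (log2 0.20, edgeR adjusted p = 0.558). Like Casp8 and Ripk1, it differed between the lines by the interaction test, at -1.44 (SE 0.18, edgeR adjusted p = 4.53e-05).

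**Figure D4:**
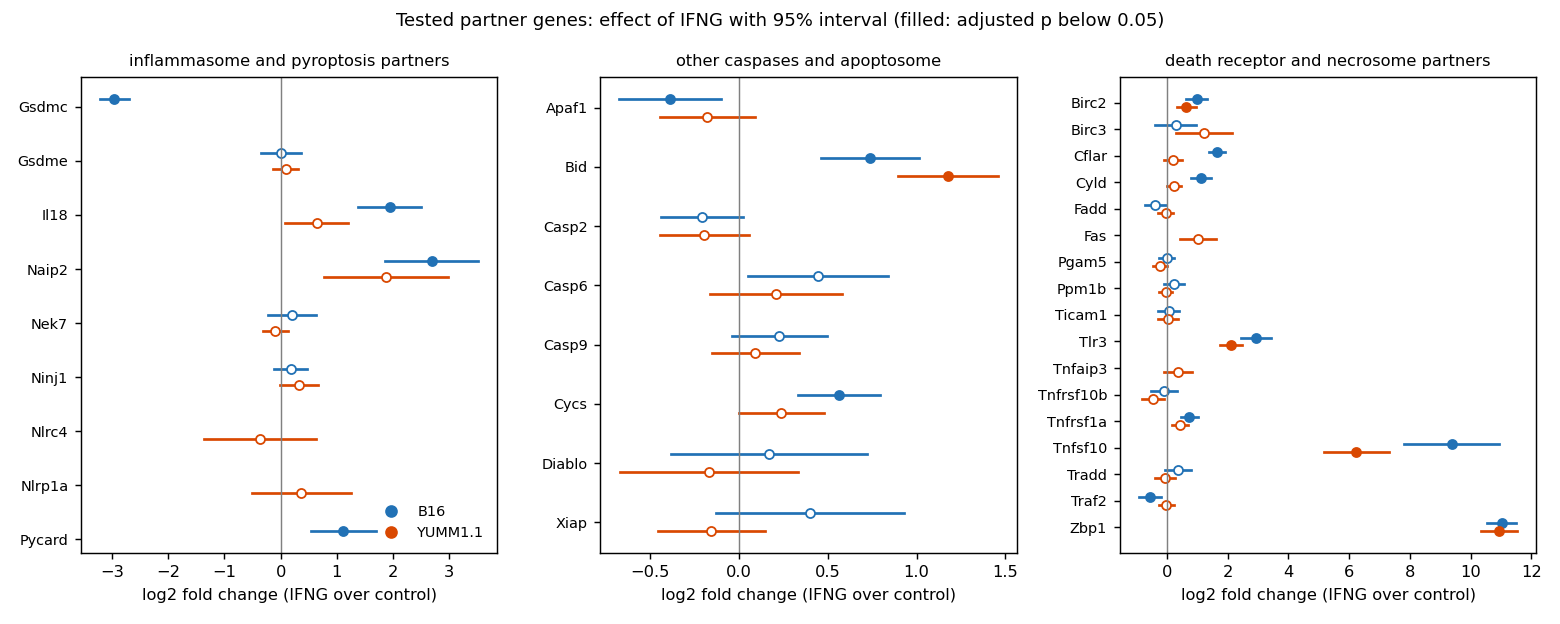
Log2 fold change with 95% interval (horizontal axis, its own scale in each panel) of the tested partner genes in B16 (blue) and YUMM1.1 (orange). Filled points have an edgeR adjusted p below 0.05. Zbp1 lay near 11 in both lines, on 6 control counts in B16 and 7 in YUMM1.1. Cflar was called in B16 alone, and the fitted value of Tnfsf10 in B16 rests on 0 control counts.

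The genes whose level was most like that of each member over the 12 libraries were found by Pearson correlation of log2(CPM + 1) among 10402 genes. The 12 points share line and treatment, and the likeness is a description with no test. Mlkl was most like Olfr56 (0.998), Tgtp1 (0.998) and Zbp1 (0.998). Among the genes most like Gsdmd were 2610507B11Rik (0.984) and Cdkl3 (0.984). Casp1 was most like Btg1 (0.997), Tfap2b and Fam78b, and Casp4 like Ly6c1 (0.983), Cyp2j9 and BC064078. Casp12 was most like Rnf14 (0.994), Slc26a2 and Fkbp7, and Casp8 like Akap10 (0.995), Lrrc75a and Nup50. Ripk1 was the least matched, with Sqle at 0.957, Nceh1 and Pde10a.

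In the authors' deposited table for B16 the log2 values were 2.63 for Mlkl, 4.09 for Gsdmd, 7.04 for Casp12, 0.88 for Ripk1, 0.54 for Casp8, 0.60 for Casp4 and 0.38 for Casp1. In the authors' deposited table for YUMM1.1 they were 1.95 for Mlkl, 4.38 for Gsdmd, 1.25 for Casp12, 1.64 for Casp4, 0.83 for Casp1, 0.17 for Ripk1 and -0.19 for Casp8. For Ripk3 the authors' deposited tables list 1.006 in B16 and 0.09 in YUMM1.1, on 3 and 34 counts in all.

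The melanocyte markers were checked against the label of both lines. All 7 were above 1 CPM in B16, with a summed level of 28120 to 35320 CPM, against 3 of 7 and 688 to 775 CPM in YUMM1.1, nearly all of it Sox10. Tyrp1 had 0 counts in YUMM1.1. Fibroblast markers summed to 5.82 to 60.0 CPM over the libraries. The highest value was that of 1 treated B16 library, in a group that ran from 6.35 to 60.0 CPM. In that group Col1a1 ran from 1.84 to 24.45 CPM and Col1a2 from 2.17 to 25.8 CPM. Pdgfra was called lower in B16 (log2 -1.31, edgeR adjusted p = 0.0259) and not in YUMM1.1 (log2 -0.65, edgeR adjusted p = 0.258). Other fibroblast markers went the other way in B16. From untreated to treated, Col1a1 had 38 and 156 counts, Col1a2 78 and 162, Pdgfrb 5 and 32, and Lum 0 and 14. Dcn had 6 and 6 counts and Thy1 0 and 1.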

How the data were processed

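Bulk RNA-seq libraries of B16 and YUMM1.1 cells were grouped by the sample labels. The authors deposited raw read counts per Ensembl gene, whole numbers with no normalization, on GRCm38 per the submitters' processing notes. The aligner, counter and strand were not given in the sources used here. The authors' deposited comparison tables give a log2 fold change, a score (the test statistic) and a p-value without adjustment, per the file headers, and were used for symbols and for the authors' values.

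The tests were run with edgeR 4.0.16 under R 4.3.3 (filterByExpr defaults, TMM, robust quasi-likelihood F tests), with the effect of IFNG fitted on the 6 libraries of a line and the other contrasts on all 12. Each SE was obtained by dividing the size of the log2 value by the root of its F statistic. The fit was tested on simulated data with the same dispersion for all genes and changes planted only in genes above a count threshold. That test does not cover groups with almost no counts, such as untreated B16 for Casp12 or untreated YUMM1.1 for Gsdmd. Levels per kilobase use merged GENCODE M21 exons. Alternatives were RLE factors, library totals, no filter, 1 CPM in 3 libraries, DESeq2 1.42.0, limma-voom (limma 3.58.1), a replicate block, all 12 libraries in 1 fit, and each library left out. Python 3.11.15 and matplotlib 3.10.9 served for the figures.

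Some partner genes are not reported here and were left out of the lists and their counts. The members and the partner lists were chosen with earlier results of these data known. Genes were named by a rule: all members, per partner list and line the called genes with the 3 smallest adjusted p and each count of 5 or fewer, and per tested member the 3 most correlated genes that average 5 CPM or more. Pycard in YUMM1.1, Il1b, Aim2, Nlrp3 and the marker genes were named after their values were seen. Intervals on pooled counts are exact and cover counting error only, at 95%.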

Additional observations from a re-analysis of the deposited data

Results flagged for a closer look

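For 8 genes the effect of IFNG differed between the lines by the edgeR test of the interaction, each given here as the log2 effect in YUMM1.1 minus that in B16. Among the members these were Casp8 (-0.69), Casp12 (-5.77, fitted on 1 untreated B16 count), Mlkl (-0.64) and Ripk1 (-0.66), all with a smaller rise, or none called, in YUMM1.1. Among the partner genes the effect was lower in YUMM1.1 for Il18 (-1.27), for Cflar (-1.44) and for Cyld (-0.88), a deubiquitinase acting on RIPK1. It was higher for Tnfaip3 (2.41), the ubiquitin editor A20. Tnfaip3 had 25 counts in untreated and 6 in treated B16, and 639 and 880 in YUMM1.1, and was not called in YUMM1.1 (log2 0.35). The calls for Il18 and Tnfaip3 were lost without some single libraries, with adjusted p up to 0.115 and 0.0777 over the alternatives.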

How the results depend on the processing

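In B16 and in YUMM1.1 the same 5 members were called under every alternative and without each library. Among single genes and levels, 1007 values under an alternative kept their direction and call or stayed within 1 SD, 27 lost and 3 gained a call, 22 moved and 6 reversed. The reversed values are all of uncalled genes: the difference for Casp1 was -0.11, -0.02 and -0.05 without B16 Control 2, IFNG 1 or IFNG 2, that for Gsdmd was -0.41 and -0.08 without YUMM1.1 Control 1 or IFNG 3, and Mlkl in untreated cells was -0.0034 with library totals. With a library left out the difference ran from -0.11 to 1.58 for Casp1 and from -0.41 to 1.35 for Gsdmd. The cause was not tested. The values of Casp1, Casp12 and Ripk3 in B16 and of Gsdmd and Ripk3 in YUMM1.1 rest on few counts.

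With no filter 1055 genes were called in YUMM1.1 in place of 591, and 7 death receptor partners in place of 4. The inflammasome list in YUMM1.1 had 1 call, Naip2, with no filter, DESeq2, the replicate block or all 12 libraries in 1 fit, in place of 0. For the difference, that list had 2 calls with limma-voom in place of 1, and 0 to 1 with a library left out. The other caspases had 1 with library totals in place of 0. The death receptor partners had 2 to 5 in place of 3 with a library left out. With the longest coding transcript as length 6 ranks changed, and 0 to 2 with a library left out. Library totals changed the higher and lower calls in B16 from 2486 and 2472 to 1702 and 3872, in YUMM1.1 from 484 and 107 to 425 and 178, for the difference from 1353 and 1157 to 1727 and 886, and for untreated lines from 4721 and 4546 to 3802 and 5595.

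Same-numbered control and treated libraries correlated at 0.15, -0.01 and 0.15 in B16 and at -0.03, -0.43 and -0.08 in YUMM1.1. Differently numbered ones ran from -0.20 to 0.10 in B16 and from -0.30 to 0.43 in YUMM1.1. So few correlations cannot settle whether the numbers pair the libraries. With the replicate block 5765 genes were called in B16, 560 in YUMM1.1 and 2338 for the difference, and the block kept the calls of the members: 5 in B16, 5 in YUMM1.1 and 4 for the difference.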
